A study of Mus musculus with 45 samples.

Results

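Genes of the neurotrophin system were followed through synaptic activity and its interruption in mouse hippocampal primary neurons, namely the ligands Bdnf and Ntf3, the Trk receptors Ntrk2 and Ntrk3, the p75 receptor Ngfr and the sorting receptor Sort1. These 6 genes were chosen by name, with earlier results of these data known, and all were found among the 54532 genes of the count table. The neurons came from newborn C57BL/6N mice, were grown in B27 with 1% rat serum and with AraC, which kills dividing cells, and were treated on day 10 or 11 in vitro per the labels, which the study's methods give as day 11 for RNA-seq. Controls received no agent. Neurons in the Bic series were kept in bicuculline (Bic, 50 µM), which blocks GABA type A receptors and so induces action potential (AP) firing, for 0.5, 1 or 2 h. In the short protocol (SP), tetrodotoxin (TTX, 1 µM), which stops AP firing, was added after 0.5 h of Bic, alone or with NMDA (30 µM), and RNA was taken 0.5 h later. In the long protocol (LP), TTX, TTX/NMDA or the glutamate uptake blocker TBOA (50 µM) was added after 1 h of Bic, and RNA was taken 1 h later. Bic stayed in the medium throughout, so every intervention was made on top of Bic and no group received NMDA, TTX or TBOA alone. Each of the 9 conditions had 1 library from each of 5 culture preparations, taken from the replicate numbers 1, 3, 6, 7 and 8 in the labels. This gave 45 libraries with 11316580 to 81129276 counts on genes (median 26239614).

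Neurotrophins are secreted growth factors that are made as precursors, cleaved by proprotein convertases and sorted into vesicles for release. BDNF acts through TrkB, the product of Ntrk2, and NT-3 through TrkC, the product of Ntrk3, both receptor tyrosine kinases that signal through adaptors of the Shc and Frs families to the MAP kinase and PI3 kinase pathways, and that bind phospholipase C gamma directly. The uncleaved precursors bind the p75 receptor (Ngfr) together with sortilin (Sort1), which also carries BDNF into the regulated secretory pathway. In the hippocampus Bdnf is a classical activity-induced gene with several promoters, and its product supports neuron survival and synaptic plasticity.

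In GRCm38, Bdnf lies on the plus strand at chr2:109674700-109727007 and Ntf3 on the minus strand at chr6:126101412-126166910. The receptor genes are Ntrk2 on the plus strand at chr13:58806569-59133970, Ntrk3 on the minus strand at chr7:78175959-78738012 and Ngfr on the minus strand at chr11:95568818-95587735. Sort1 lies on the plus strand at chr3:108284082-108361511. The counts pool all transcripts of a gene, which number 11 for Bdnf, 10 for Ntrk2 and 20 for Ntrk3 in the annotation, so the promoters of Bdnf cannot be told apart, nor can the full-length and truncated forms of TrkB and TrkC. Because Bdnf and Ntrk2 both rose under Bic, the 250 bases before their starts are shown, for Bdnf at the most upstream of its 7 RefSeq starts and at the third, and for Ntrk2 at its only one. They were read from RefSeq on GRCm38.p6 at chr2:109674450-109674699, chr2:109692186-109692435 and chr13:58806319-58806568, all on the plus strand. Capitals mark CGTCA, the core letters of the cAMP response element that CREB binds, searched on both strands.
Bdnf start 1: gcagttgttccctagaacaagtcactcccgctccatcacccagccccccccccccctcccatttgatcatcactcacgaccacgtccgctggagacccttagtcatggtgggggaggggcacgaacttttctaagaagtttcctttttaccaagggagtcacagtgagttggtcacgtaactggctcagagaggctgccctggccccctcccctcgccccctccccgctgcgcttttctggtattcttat
Bdnf start 3: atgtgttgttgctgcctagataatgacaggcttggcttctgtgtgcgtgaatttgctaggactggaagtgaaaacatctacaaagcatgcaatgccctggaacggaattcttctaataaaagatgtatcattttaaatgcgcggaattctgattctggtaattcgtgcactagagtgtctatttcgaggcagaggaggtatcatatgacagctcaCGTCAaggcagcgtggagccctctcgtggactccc
Ntrk2 start 1: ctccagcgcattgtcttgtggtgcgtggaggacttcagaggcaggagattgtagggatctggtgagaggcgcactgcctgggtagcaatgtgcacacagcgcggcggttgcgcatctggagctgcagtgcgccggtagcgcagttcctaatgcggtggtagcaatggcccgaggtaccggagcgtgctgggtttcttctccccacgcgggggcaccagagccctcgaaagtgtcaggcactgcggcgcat
Among the 7 Bdnf windows, only that of start 3 held these letters, with their first base at position -35 from the start site. The windows of the 2 Ntf3 starts, of Ntrk2 and of Ngfr did not hold them. CGTCA was present in 5836 of 32851 such windows (17.8%), and the full palindrome TGACGTCA, which contains it, in 508 (1.55%). None of the windows of Bdnf, Ntf3, Ntrk2 and Ngfr held the palindrome. Windows of Ntrk3 and Sort1 were not available and were not searched.

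The 6 genes differed widely in level. Levels are given as CPM, the counts scaled to a common library size with TMM factors over all 45 libraries. In the controls, Ntrk2 was at 499 ± 56.5 CPM (SD, n = 5), Sort1 at 380 ± 62.0, Ntrk3 at 269 ± 37.2 and Bdnf at 107 ± 23.6. Ntf3 was at 3.41 ± 1.14 and Ngfr at 3.94 ± 0.405, with 25 to 136 and 45 to 219 reads per library. Per kilobase of exon, Sort1 was the most abundant of the 6 in the controls (50.2 CPM per kb), followed by Ntrk2 (25.9), Bdnf (17.3), Ntrk3 (8.93), Ntf3 (1.99) and Ngfr (1.14). On this scale Bdnf was 9.48 ± 3.67 times as abundant as Ntf3 in the controls and 33.8 ± 14.6 times after 2 h Bic. The neuronal identity of the cultures was checked with marker genes. The 5 general neuronal markers (Map2, Tubb3, Rbfox3, Snap25, Syn1) summed to 3973 to 4865 CPM in the controls, 10 astrocyte markers to 1031 to 1377, 8 markers of the oligodendrocyte lineage to 118 to 194, 5 fibroblast markers to 99.5 to 286, 10 microglial markers to 26.2 to 35.1 and 5 endothelial markers to 1.82 to 3.67. Glial and fibroblast RNA was thus present. Markers of the same type varied widely in their mean over the 45 libraries. The astrocyte markers Gfap and Gjb6 were at 279 and 0.0625 CPM. The oligodendrocyte lineage markers Olig1 and Sox10 were at 97.8 and 0.121 CPM, and the endothelial markers Cdh5 and Cldn5 at 1.30 and 0.0138 CPM. Excitatory markers summed to 1896 to 2868 CPM and inhibitory markers to 1921 to 2751. In bulk RNA, fewer cells of a type and less RNA per cell cannot be told apart. Compared over 13592 expressed genes, 43 of the 45 libraries deviated from their condition mean most like the other libraries of their own preparation. The TBOA library of preparation 6 (r = -0.18 with its own preparation) and the SP TTX library of preparation 6 (r = 0.07) did not, and whether either carries the wrong label cannot be told from the labels and counts. The called changes of Bdnf that rest on these 2 libraries are given without preparation 6 as well, while the paired fit was not run without it. Leaving out preparation 6 changed no call of a member in the comparisons that hold these libraries.

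**Figure D1:**
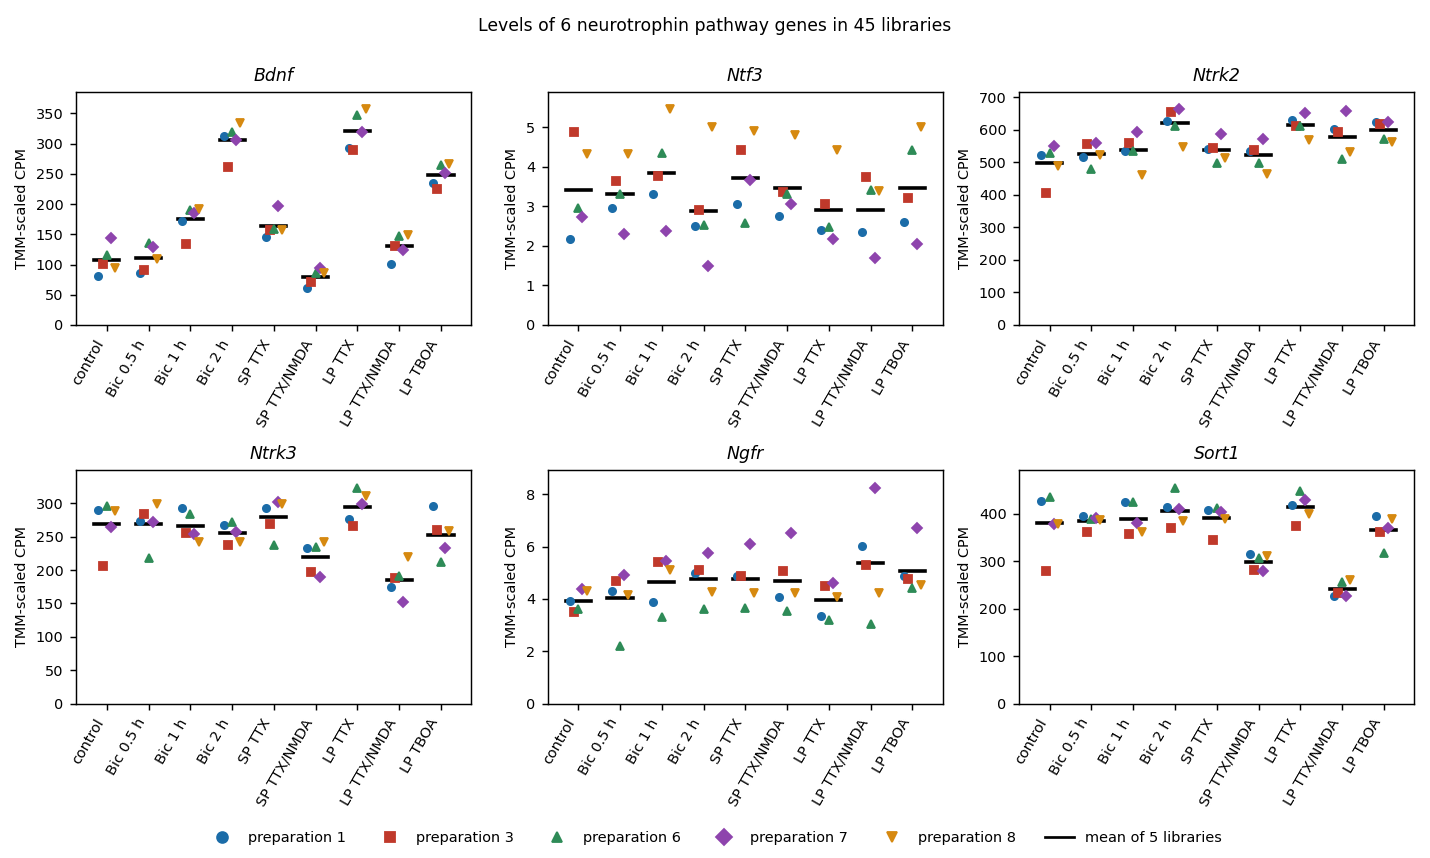
Levels of the 6 genes in each library (y axis, TMM-scaled CPM, from 0) for the 9 conditions (x axis). Symbols mark the culture preparation and black lines the mean of 5 libraries. Bdnf rose from 107 to 306 CPM over 2 h of Bic and was at 79.8 and 130 CPM in the conditions with NMDA, where Sort1 and Ntrk3 also had their lowest means, and Ntf3 and Ngfr stayed below 8.27 CPM in every library.

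Bdnf, the ligand of TrkB, rose steadily after the first 0.5 h of Bic and was the gene of the 6 with the widest range of condition means (4.03-fold). Its 5 control libraries were at 81.5, 101, 115, 143 and 94.9 CPM (preparations 1, 3, 6, 7 and 8). After 0.5 h Bic they were at 85.3, 90.8, 136, 129 and 108 CPM. These groups covered the same range, and none of the 6 genes passed edgeR's quasi-likelihood test at this time (p-values adjusted after Benjamini and Hochberg, threshold 0.05), against 0.289% of all genes tested. No member had an unadjusted p-value under 0.05 at 0.5 h, and DESeq2 called none either. The fitted log2 fold change of Bdnf at 0.5 h was 0.03 with a 95% interval from -0.18 to 0.24.

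After 1 h Bic, Bdnf was at 171, 133, 190, 185 and 192 CPM. Every preparation was above its own control, although the lowest library at 1 h lay below the highest control. The log2 fold change over the control was 0.69 ± 0.11 (SE, adjusted p = 2.00e-05), and Bdnf was the only member called, against 1.16% of all genes. From 0.5 to 1 h the change was 0.66 ± 0.09 (adjusted p = 1.22e-07, higher in 5 of 5 preparations), again for Bdnf alone, against 0.677% of genes. After 2 h Bic, Bdnf reached 313, 261, 318, 306 and 333 CPM, and all of these libraries lay above all controls and above all 1 h libraries. It was 2.82-fold higher than in the control (log2 fold change 1.50 ± 0.10, adjusted p = 1.56e-13). From 1 to 2 h the level rose by a further 0.81 ± 0.08 on the log2 scale (adjusted p = 2.45e-09, 5 of 5 preparations), where 5.33% of all genes were called in either direction.

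Ntrk2, which encodes the receptor that BDNF activates, rose with a much smaller size. Its control libraries were at 522, 406, 529, 551 and 489 CPM. After 2 h Bic they were at 628, 656, 612, 664 and 549 CPM, and each preparation was above its own control, although the groups overlapped between 549 and 551 CPM. The log2 fold change was 0.30 ± 0.08 (adjusted p = 0.0140), a 1.23-fold increase. Without preparation 3, whose control had the lowest Ntrk2 level, it was 0.22 and narrowly missed the threshold (adjusted p = 0.0514). No other alternative fit lost this call. Bdnf and Ntrk2 were thus the 2 members higher after 2 h Bic, against 4.24% of all genes, and none of the 6 was lower, with none at an unadjusted p-value under 0.05 in that direction and none by DESeq2, against 4.78%. From 1 to 2 h Bic, Ntrk2 was higher by 0.20 ± 0.07 on the log2 scale in 5 of 5 preparations with an adjusted p of 0.0759, and in the paired fit, in which the preparation was a block, it passed (0.21, adjusted p = 1.89e-04).

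The other 4 genes were not called at any time of Bic. Ntrk3 had log2 fold changes between -0.09 and 0.00 from 0.5 to 2 h, with a 95% interval at 2 h from -0.26 to 0.08. Sort1 changed by 0.02 to 0.09 on this scale, with an interval at 2 h from -0.10 to 0.27. The changes of Ngfr reached 0.25 at 2 h (interval -0.04 to 0.53). Ntf3, which encodes the ligand of TrkC, was lower at 2 than at 1 h in 5 of 5 preparations, at 2.50, 2.92, 2.52, 1.48 and 5.01 CPM after 3.31, 3.76, 4.36, 2.38 and 5.46 CPM. The groups overlapped and the change of Ntf3 from 1 to 2 h, -0.44 ± 0.21, did not pass (adjusted p = 0.381), whereas the paired fit gave -0.47 with an adjusted p of 0.00669.

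**Figure D2:**
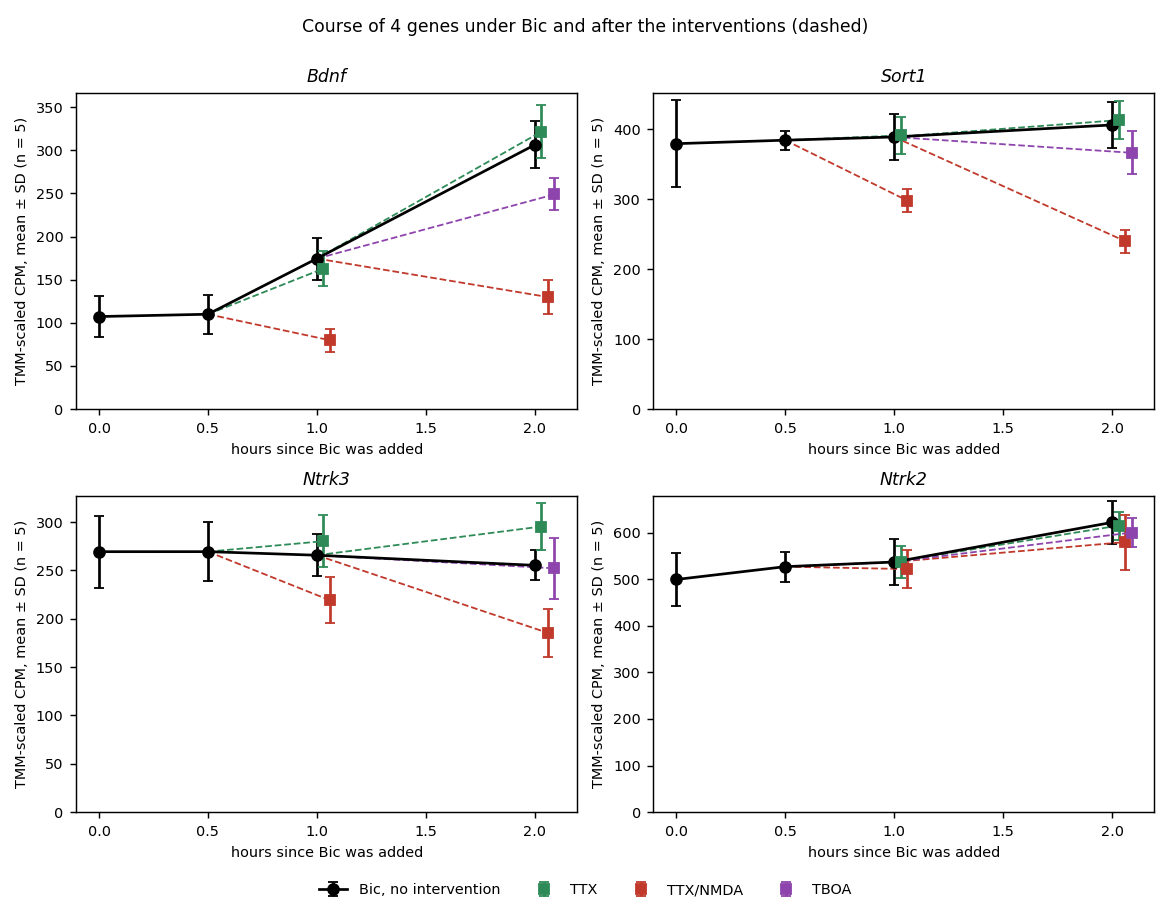
Course of Bdnf, Sort1, Ntrk3 and Ntrk2 (y axes, TMM-scaled CPM from 0, mean ± SD of 5 libraries) over the hours since Bic was added (x axis). Black points are Bic alone, and coloured squares, drawn slightly to the right of 1 and 2 h, are the intervention groups joined by dashed lines to the condition from which they started. Bdnf with TTX followed the Bic course to 321 CPM, and with TTX/NMDA it ended below its starting level, as did Sort1 and Ntrk3, whose Bic course was flat.

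Blocking AP firing with TTX, the passive effect, did not lower Bdnf detectably in either protocol. In the SP, Bdnf was at 145, 156, 159, 197 and 157 CPM with TTX, of which 4 lay within the range of 1 h Bic (133 to 192 CPM) and preparation 7 above it. The passive log2 fold change was -0.11 (95% interval -0.27 to 0.06, adjusted p = 0.879), and -0.05 without preparation 6 (adjusted p = 0.939). None of the 6 genes was called in the SP passive effect, none had an unadjusted p-value under 0.05 and DESeq2 called none, against 0.268% of all genes. In the LP, Bdnf was at 293, 290, 348, 320 and 357 CPM with TTX, against 261 to 333 after 2 h Bic. Its passive change was 0.06 (interval -0.08 to 0.20, adjusted p = 0.673).

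Set against the level at which TTX was added, Bdnf continued to rise without AP firing. After 1 h with TTX it was 1.83-fold higher than after the 1 h of Bic that preceded it (log2 fold change 0.87 ± 0.08, adjusted p = 8.87e-11), and all TTX libraries lay above all 1 h libraries. Bdnf was the 1 member called in this comparison, against 7.19% of all genes. After 0.5 h with TTX it was 1.47-fold above the 0.5 h Bic level (0.56 ± 0.09, adjusted p = 2.58e-05, 5 of 5 preparations), again alone among the 6, against 0.315%. Without preparation 6 the rise of Bdnf in the SP was 0.66 (adjusted p = 1.77e-13), and over the genes kept by the low-count filter filterByExpr it did not pass (0.55, adjusted p = 0.0899). The increment that 2 h of Bic gave over the control was taken as 100% within each preparation. On this scale Bdnf stood at 32.5 ± 9.09% when the LP interventions began (mean ± SD, n = 5), and 1 h later at 109 ± 10.3% with TTX.

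Ntrk3 with LP TTX was at 276, 267, 324, 298 and 312 CPM, after 268, 237, 272, 257 and 242 CPM in 2 h Bic. It was higher in 5 of 5 preparations, by 0.20 ± 0.06 on the log2 scale, and did not pass (adjusted p = 0.0639), while the paired fit (0.19, adjusted p = 0.00211) and DESeq2 (0.20, adjusted p = 0.0347) called it. Ngfr was lower in 5 of 5 preparations (-0.25, adjusted p = 0.427; paired fit -0.27, adjusted p = 0.0322). No member was called higher in the LP passive effect, with 1 at an unadjusted p-value under 0.05 and 1 by DESeq2, against 3.03% of all genes. None was called lower, with none at an unadjusted p-value under 0.05 and none by DESeq2, against 1.62%. The passive effects of the LP and the SP did not differ detectably for any member, with none at an unadjusted p-value under 0.05 and none by DESeq2, against 0.256% of all genes. Set against 1 h Bic, Ntrk2 was higher with LP TTX by 0.19 on the log2 scale (adjusted p = 0.0971, paired fit 0.18 with adjusted p = 0.00424) and Ntf3 lower by a change of -0.41 (adjusted p = 0.240, paired fit -0.41 with adjusted p = 0.0138).

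NMDA added together with TTX, the active effect, lowered Bdnf, Sort1 and Ntrk3 in both protocols. In the SP, Bdnf fell to 61.3, 70.7, 86.2, 94.6 and 86.2 CPM, and all 5 libraries lay below all TTX libraries. The active log2 fold change was -1.03 ± 0.09 (adjusted p = 5.33e-10), a 2.05-fold lower level. Sort1 fell from 408, 346, 412, 403 and 389 CPM with TTX to 314, 282, 306, 279 and 311 CPM with TTX/NMDA, again without overlap (-0.40 ± 0.07, adjusted p = 1.81e-04). Ntrk3 changed by -0.36 ± 0.08 (adjusted p = 0.00303) from 238 to 302 CPM with TTX to 189 to 241 CPM with TTX/NMDA, and its groups overlapped through preparation 6, in which the levels were 238 and 235 CPM. Without preparation 6, to which the SP TTX library that stood apart belongs, the 3 changes were -1.07 for Bdnf, -0.39 for Sort1 and -0.44 for Ntrk3, and all 3 passed (adjusted p = 2.43e-13, 2.44e-04 and 5.50e-05). These were the only members called in the SP active effect, against 4.28% of all genes in either direction.

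The same 3 genes were called lower in the SP total effect, in which TTX/NMDA is compared with 1 h Bic. Of all genes, 4.3% were called there in either direction. The changes were -1.13 ± 0.10 for Bdnf (adjusted p = 4.13e-11), -0.39 ± 0.07 for Sort1 (adjusted p = 1.92e-04) and -0.28 ± 0.07 for Ntrk3 (adjusted p = 0.0178). The change of Ntrk3 in the SP total effect did not pass without preparation 1, 3 or 7 (adjusted p = 0.0801, 0.0658 and 0.0518) or in a fit over all 45 libraries (adjusted p = 0.0755). Against the 0.5 h Bic level at which the intervention began, Bdnf was 1.40-fold lower with SP TTX/NMDA (-0.48 ± 0.10, adjusted p = 0.00402), Sort1 1.30-fold lower (-0.38 ± 0.07, adjusted p = 3.52e-04) and Ntrk3 1.24-fold lower (-0.32 ± 0.08, adjusted p = 0.0168). These were the 3 members called, against 3.21% of all genes in either direction. Bdnf and Sort1 were lower in 5 of 5 preparations and Ntrk3 in 4 of 5. The change of Bdnf did not pass over the genes kept by filterByExpr (adjusted p = 0.0537), nor that of Ntrk3 without preparation 3 or 7 (adjusted p = 0.152 and 0.113) or over all 45 libraries (0.0641).

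In the LP, Bdnf fell to 100, 131, 146, 123 and 148 CPM with TTX/NMDA, far below the 290 to 357 CPM with TTX. The active change was -1.32 ± 0.09 (adjusted p = 1.70e-12), a 2.49-fold lower level. Sort1 went from 417, 375, 447, 428 and 399 CPM with TTX to 227, 232, 256, 226 and 261 CPM with TTX/NMDA, a 1.73-fold lower level (-0.79 ± 0.07, adjusted p = 3.82e-10). Ntrk3 fell to 174, 189, 192, 152 and 220 CPM, a 1.60-fold lower level than with TTX (-0.68 ± 0.08, adjusted p = 1.09e-07). None of these 3 genes overlapped between the groups, which was not counted over all genes, and each was lower in 5 of 5 preparations. They were the 3 members called lower in the LP active effect, against 11.8% of all genes. None was called higher, with 1 at an unadjusted p-value under 0.05 and none by DESeq2, against 11.6%. The LP total effect called the same 3 genes lower, with changes of -1.25 ± 0.09 for Bdnf, -0.77 ± 0.07 for Sort1 and -0.48 ± 0.08 for Ntrk3 (adjusted p = 1.47e-13, 2.14e-10 and 1.13e-05), against 11.1% of all genes. None was called higher, with none at an unadjusted p-value under 0.05 and none by DESeq2, against 11.7%. These comparisons share the TTX/NMDA libraries and are not independent of each other.

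**Figure D3:**
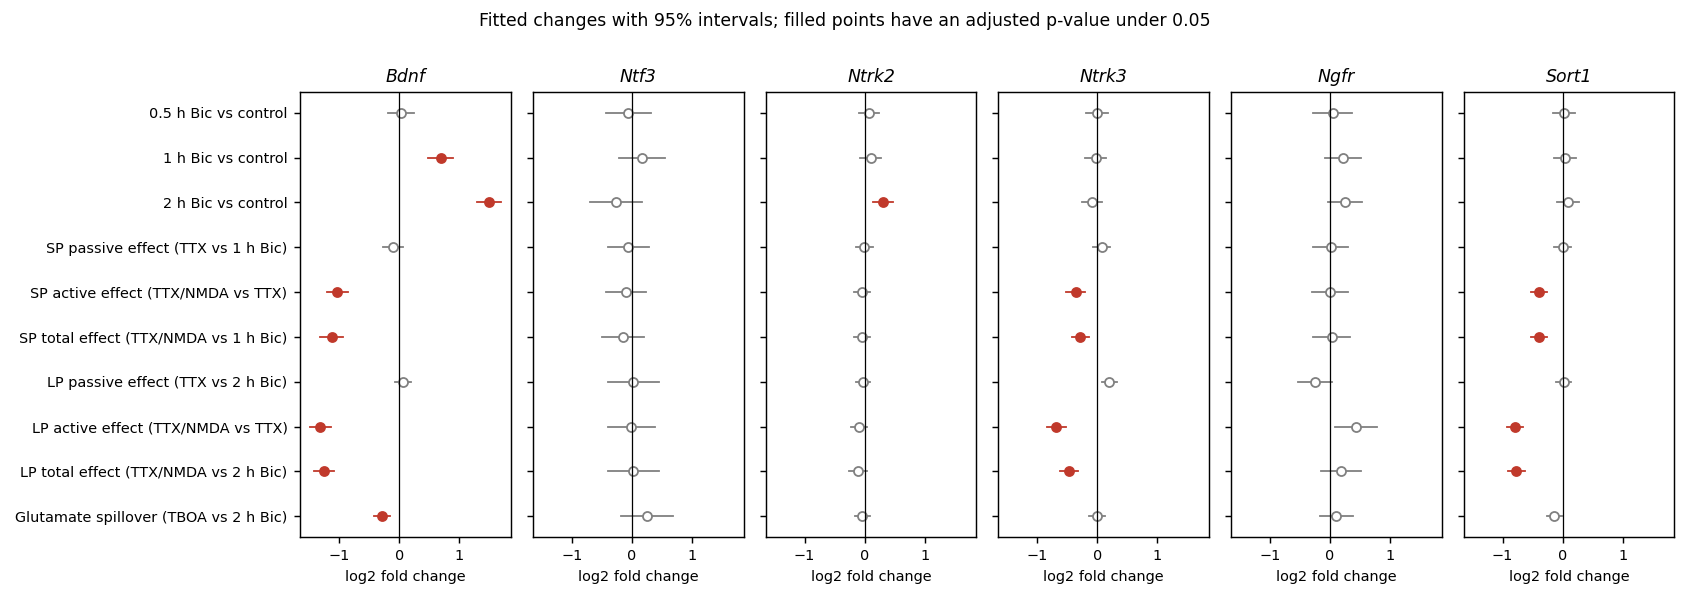
Fitted log2 fold changes (x axes) of the 6 genes in 10 comparisons (y axis), with 95% intervals from edgeR's quasi-likelihood fit. Filled red points have an adjusted p-value under 0.05 and open grey points do not. Bdnf passed in 7 of the 10 comparisons, Sort1 and Ntrk3 in the 4 active and total effects, Ntrk2 after 2 h Bic, and Ntf3 and Ngfr in none.

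Within the LP, TTX/NMDA took Bdnf below the level at which it was added. Against 1 h Bic it was 1.35-fold lower (-0.44 ± 0.09, adjusted p = 3.68e-04), in 5 of 5 preparations, although the groups overlapped at their edges. Sort1 was 1.63-fold lower than after 1 h Bic (-0.71 ± 0.07, adjusted p = 1.72e-09) and Ntrk3 1.44-fold lower (-0.53 ± 0.08, adjusted p = 2.72e-06). Bdnf, Sort1 and Ntrk3 were the members called, against 21.1% of all genes in either direction. Ntf3 was lower in 5 of 5 preparations by a change of -0.41 that did not pass (adjusted p = 0.133, paired fit -0.38 with adjusted p = 0.0217). On the scale of the Bic-induced increment, Bdnf stood at 10.4 ± 13.8% with LP TTX/NMDA, from -12.4 to 22.3% in the 5 preparations. Compared with untreated neurons, Bdnf was 1.20-fold higher in LP TTX/NMDA, and this difference did not pass (0.26, 95% interval 0.05 to 0.48, adjusted p = 0.0985), but did in the paired fit (0.30, adjusted p = 0.0276) and without preparation 7, the only one in which Bdnf was below its control (0.41, adjusted p = 0.00199).

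Sort1 and Ntrk3, which Bic had not moved, ended below the untreated level. With LP TTX/NMDA, Sort1 was 1.59-fold lower than in the control (-0.67 ± 0.10, adjusted p = 2.01e-06), with all 5 libraries (226 to 261 CPM) below all controls (279 to 435 CPM). Ntrk3 was 1.46-fold lower (-0.54 ± 0.10, adjusted p = 6.02e-05) in 5 of 5 preparations, with an overlap through the control of preparation 3 (206 CPM). These 2 members were called in this comparison, against 19.5% of all genes in either direction. Ntrk2 and Ngfr were higher than in the control by 0.21 and 0.45 on the log2 scale and did not pass (adjusted p = 0.115 and 0.0685), and both passed in the paired fit (Ntrk2 0.23, adjusted p = 0.0299, and Ngfr 0.44, adjusted p = 0.0437).

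Ntrk2, the TrkB gene, did not change detectably with NMDA. Its active log2 fold change was -0.05 in the SP (95% interval -0.18 to 0.08) and -0.09 in the LP (interval -0.23 to 0.05), with adjusted p of 0.737 and 0.401. With LP TTX/NMDA Ntrk2 was at 602, 593, 511, 659 and 532 CPM, against 632, 611, 611, 651 and 570 CPM with TTX. The ratio of Ntrk2 to Ntrk3 per kilobase of exon was 3.28 ± 0.348 with LP TTX and 5.01 ± 1.18 with LP TTX/NMDA, with ranges of 2.86 to 3.58 and 3.78 to 6.79 that did not overlap. After 2 h Bic this ratio was 3.82 ± 0.353 (3.52 to 4.33), which overlapped LP TTX/NMDA, and in the SP the ranges with TTX (2.69 to 3.27) and TTX/NMDA (3.01 to 4.72) overlapped as well.

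Ngfr, the p75 receptor, was higher with LP TTX/NMDA than with TTX in 4 of 5 preparations, at 6.02, 5.31, 3.06, 8.27 and 4.24 CPM against 3.35, 4.51, 3.18, 4.61 and 4.09 CPM. The log2 fold change of 0.43 ± 0.18 did not pass (adjusted p = 0.0823), whereas it passed in the paired fit (0.45, adjusted p = 0.00549) and without preparation 6 or 8 (0.47 and 0.52, adjusted p = 0.0363 and 0.00726). In the SP the change of Ngfr was 0.00 (interval -0.29 to 0.30). Ntf3 had active changes of -0.10 in the SP and -0.01 in the LP, with intervals from -0.43 to 0.24 and from -0.40 to 0.38.

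The longer protocol lowered Sort1 more than the shorter one. The difference between the active effects of the LP and the SP was -0.38 ± 0.09 on the log2 scale (adjusted p = 0.0185), and it was negative in 5 of 5 preparations, from -0.50 to -0.29. Sort1 was the only member called in this comparison, against 2.57% of all genes. Without preparation 1 or 7 the difference was -0.35 or -0.37 and did not pass (adjusted p = 0.0975 and 0.0551), and without preparation 6 it was -0.38 (adjusted p = 0.0419). For Ntrk3 the difference was -0.30 (adjusted p = 0.207) and in the paired fit -0.31 (adjusted p = 0.0438). For Ngfr it was 0.44 (adjusted p = 0.459) and in the paired fit 0.46 (adjusted p = 0.0340). For Bdnf it was -0.27 with an interval from -0.54 to 0.00 (adjusted p = 0.395), which was not detectable. The 2 protocols differ both in the time under Bic and in the time with NMDA, which cannot be told apart.

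**Figure D4:**
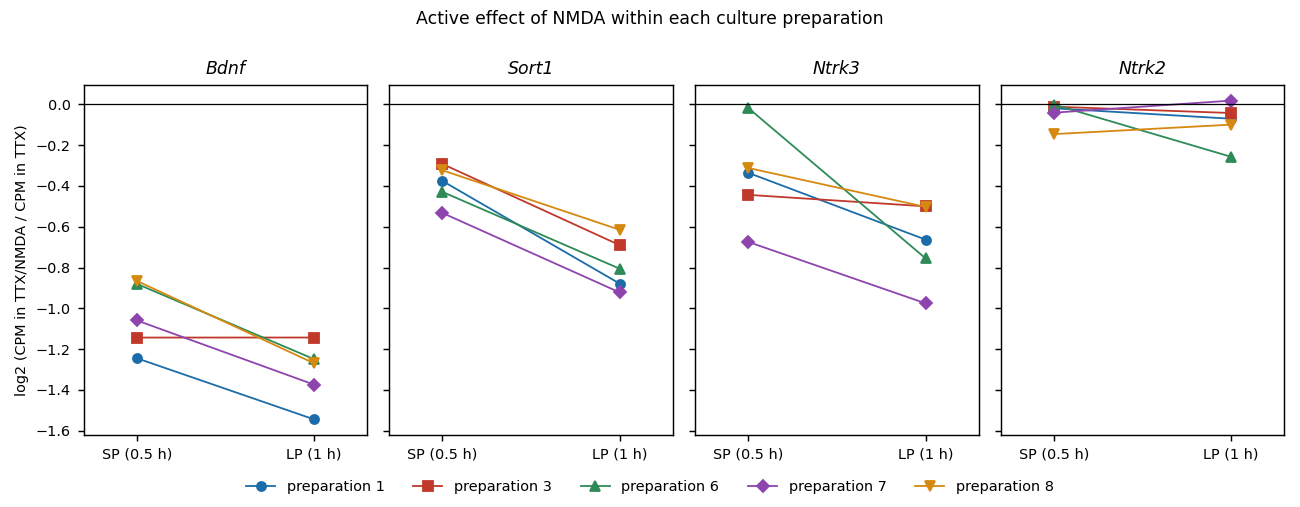
Active effect within each culture preparation, as the log2 ratio of the CPM with TTX/NMDA to the CPM with TTX (y axis), for the SP and the LP (x axis), with 1 line per preparation. All 5 lines of Sort1 descend, by 0.29 to 0.50, those of Ntrk3 start between -0.67 and -0.02, and those of Ntrk2 stay between -0.26 and 0.02.

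With TBOA, which lets synaptically released glutamate spill over, Bdnf was modestly lower, a call that some alternative fits lost. In the study's RT-qPCR of the exon IV transcript, TBOA had no significant effect on Bdnf. Bdnf was at 235, 225, 265, 252 and 267 CPM with TBOA, against 313, 261, 318, 306 and 333 CPM after 2 h Bic, lower in 5 of 5 preparations, with 2 TBOA libraries above the lowest 2 h Bic library. The log2 fold change was -0.29 ± 0.07 (adjusted p = 0.0281), a 1.22-fold lower level, and Bdnf was the 1 member lower, against 0.549% of all genes. Without preparation 6, whose TBOA library stood apart, it was -0.30 (adjusted p = 0.0361). The call was lost over the genes kept by filterByExpr (adjusted p = 0.109), without preparation 1 (adjusted p = 0.154) and in the fit over all 45 libraries (adjusted p = 0.597), with changes of -0.29, -0.26 and -0.30, while the paired fit kept it (adjusted p = 0.00499). No member was called higher, with none at an unadjusted p-value under 0.05 and none by DESeq2, against 0.0536%. Sort1 was lower by a change of -0.14 (adjusted p = 0.603) with its lowest level, 317 CPM, in the library that stood apart, and Ntrk3 changed by -0.01 (interval -0.14 to 0.13).

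With TBOA, Bdnf stayed above the level at which the intervention began. It was 1.42-fold higher with TBOA than after 1 h Bic (0.51 ± 0.08, adjusted p = 1.64e-05) without overlap, the only member called against 3.46% of all genes, and stood at 71.3 ± 4.64% of the Bic-induced increment (69.8 to 72.6% when any 1 preparation was left out). It was 1.29-fold lower than with LP TTX (-0.36 ± 0.07, adjusted p = 3.85e-04), again the only member called, against 4.26% of all genes, and this call was lost in the fit over all 45 libraries (adjusted p = 0.0537). Without preparation 6, Bdnf with TBOA differed by 0.53 from 1 h Bic and by -0.36 from LP TTX on the log2 scale (adjusted p = 2.06e-06 and 5.41e-04). Ngfr was higher with TBOA than with LP TTX in 5 of 5 preparations by 0.34 (adjusted p = 0.223, paired fit 0.36 with adjusted p = 0.0415). Directly compared, TTX/NMDA gave lower levels than TBOA of Bdnf (-0.94 ± 0.08, adjusted p = 1.19e-10), Sort1 (-0.62 ± 0.07, adjusted p = 1.01e-07) and Ntrk3 (-0.45 ± 0.09, adjusted p = 1.71e-04). These 3 members were called, against 16.6% of all genes in either direction. Without preparation 6 these differences were -0.98 for Bdnf, -0.70 for Sort1 and -0.53 for Ntrk3. Ntrk2 was 1.11-fold higher with TBOA than after 1 h Bic in 5 of 5 preparations (0.16, adjusted p = 0.315, paired fit 0.17 with adjusted p = 0.0236).

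Ordered by mean level, Bdnf was lowest in SP TTX/NMDA, followed by the control, 0.5 h Bic, LP TTX/NMDA, SP TTX, 1 h Bic, TBOA, 2 h Bic and LP TTX (321 CPM). Only between 1 h Bic (174 CPM) and TBOA (249 CPM) did neighbours in this order not overlap. Sort1 was lowest in LP TTX/NMDA (240 CPM), next in SP TTX/NMDA (298 CPM) and then in TBOA (367 CPM), 3 groups whose ranges did not overlap, whereas the 6 remaining means from 380 to 413 CPM overlapped with their neighbours. The means of Ntrk3 ran from 185 CPM in LP TTX/NMDA to 295 CPM in LP TTX, those of Ntrk2 from 499 to 622 CPM, those of Ntf3 from 2.89 to 3.86 CPM and those of Ngfr from 3.94 to 5.38 CPM, with overlap between all neighbours.

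The markers of cell types moved in the same comparisons. Of all genes, 11.6% were called higher and 11.8% lower in the LP active effect, and 4.24% and 4.78% after 2 h Bic. In the LP active effect all 5 excitatory neuron markers (Slc17a7, Slc17a6, Camk2a, Neurod2, Neurod6) were lower, with a median log2 fold change of -0.59, and their sum went from 2306 to 2798 CPM with TTX to 1114 to 1606 CPM with TTX/NMDA. General neuronal markers went from 4672 to 4979 CPM to 3754 to 4041 CPM, with 2 of 5 called lower. Of the astrocyte markers 8 of 10 were higher and 1 lower, and their sum ranged from 1074 to 1631 CPM with TTX and from 1297 to 2288 CPM with TTX/NMDA. All 5 fibroblast markers, 6 of 10 microglial markers, 5 of 8 oligodendrocyte lineage markers, 2 of 4 inhibitory neuron markers and 1 of 5 endothelial markers were higher. DESeq2 called 0 of the 5 fibroblast markers, 3 of the 8 oligodendrocyte lineage markers and 1 of the 4 inhibitory markers in this comparison, whereas all 5 excitatory markers and 6 microglial markers passed there too. In the SP the excitatory sum was 2279 to 2896 CPM with TTX and 1532 to 2029 CPM with TTX/NMDA. The part of these shifts in the levels of Sort1, Ntrk3, Ngfr and Bdnf was not tested. Under 2 h Bic, when Bdnf and Ntrk2 rose, 2 of 5 excitatory markers were higher and 1 lower, 1 astrocyte and 1 inhibitory marker were higher, and no other marker was called.

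Other genes of the pathway were described from fixed lists. Calls are given beside the share of all genes called, and some medians beside the median of all genes tested. Of 19 tested genes (20 listed) for proneurotrophin processing and release, 3 were higher after 2 h Bic, against 4.24% of all genes, and the remaining 16 were not called (median log2 fold change 0.13, all genes -0.01). They were Pcsk1, a proprotein convertase of the regulated secretory pathway (1.60 ± 0.10, adjusted p = 1.12e-14), Plat, which encodes the tissue plasminogen activator that starts extracellular proBDNF cleavage through plasmin (1.38 ± 0.09, adjusted p = 4.71e-14), and Syt4, a synaptotagmin of BDNF vesicles (0.75 ± 0.09, adjusted p = 1.52e-07). In the LP active effect 8 of the 19 were lower, against 11.8% of all genes, and the other 11 not called (median -0.17, all genes 0.11). The largest falls were those of Pcsk1 (-1.70 ± 0.10, adjusted p = 1.46e-13), Syt4 (-0.69 ± 0.10, adjusted p = 3.00e-06) and Cadps2, which primes dense-core vesicles (-0.58 ± 0.07, adjusted p = 2.42e-07). Pcsk1 and Syt4 thus rose with Bic and fell with NMDA, as Bdnf did. None of the 19 was called in the LP passive effect (3 at an unadjusted p-value under 0.05, 2 by DESeq2), against 3.03% of all genes higher and 1.62% lower. In the LP total effect 9 were lower and 1 higher, against 11.1% and 11.7% of all genes. With TBOA 1 was lower, against 0.549%.

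Of 14 genes in the list of sortilin relatives and p75 partners, 1 was higher and 1 lower after 2 h Bic, against 4.24% and 4.78% of all genes. These were Lingo1, a p75 co-receptor (0.28 ± 0.09, adjusted p = 0.0281), and Rtn4r, the Nogo receptor (-0.31 ± 0.08, adjusted p = 0.00984). In the LP active effect 4 were higher and 5 lower, against 11.6% and 11.8% of all genes (median -0.09, all genes 0.11). The relatives of sortilin went in both directions, with Sorl1 (-0.54 ± 0.09, adjusted p = 6.85e-05) and Sorcs2 (-0.49 ± 0.07, adjusted p = 6.02e-06) lower and Sorcs1 higher (0.53 ± 0.09, adjusted p = 5.78e-05). Lingo1 was lower (-0.90 ± 0.07, adjusted p = 5.76e-11), and Nradd, a p75-like protein, and Bex3, which binds the p75 death domain, were higher (0.71 and 0.22, adjusted p = 0.0204 and 0.0221). In this list 1 gene was higher in the LP passive effect, against 3.03% of all genes. In the LP total effect 2 were higher and 5 lower, against 11.7% and 11.1%, and with TBOA 1 was lower, against 0.549%.

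The 33 adaptors and regulators of Trk signalling had 8 higher and 1 lower member after 2 h Bic, against 4.24% and 4.78% of all genes (median 0.14). Irs2, an adaptor to PI3 kinase, rose most (2.12 ± 0.10, adjusted p = 3.78e-18), followed by Shc4, a Shc adaptor (1.47 ± 0.11, adjusted p = 5.20e-13), and Ptpn12, a tyrosine phosphatase (0.57 ± 0.08, adjusted p = 1.61e-06), and Slitrk5, a TrkB co-receptor, was lower (-0.32 ± 0.08, adjusted p = 0.00359). In the LP active effect 19 of the 33 were lower and 6 higher, against 11.8% and 11.6% of all genes (median -0.22, all genes 0.11). Dok6, an adaptor, was lower (-1.13 ± 0.10, adjusted p = 1.01e-09), as were Shc4 (-1.01 ± 0.10, adjusted p = 1.80e-09) and Pik3r1, the regulatory subunit of PI3 kinase (-0.81 ± 0.08, adjusted p = 4.88e-09). Lrig1, a negative regulator of receptor tyrosine kinases, was higher (0.81 ± 0.15, adjusted p = 1.68e-04), as were the adaptors Shc1 (0.64 ± 0.19, adjusted p = 0.0121) and Frs3 (0.53 ± 0.09, adjusted p = 3.86e-05). In the LP passive effect 4 were higher and 4 lower, against 3.03% and 1.62% of all genes. In the LP total effect 4 were higher and 22 lower, against 11.7% and 11.1%. With TBOA none was called (6 at an unadjusted p-value under 0.05, 2 by DESeq2), against 0.0536% higher and 0.549% lower.

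The genes most like each member were found by Pearson's r of log2 CPM over the 45 libraries, after the mean of each preparation was removed, among 13591 other expressed genes. These libraries share the 9 conditions and the 5 preparations, and r describes them without a test. The genes most like Bdnf were Nr4a3 (0.97), an orphan nuclear receptor, Nrn1 (0.96), the secreted neuritin, Arl5b (0.96), Klf9 (0.96) and Fam107b (0.96). For Sort1 they were Stxbp5l (0.98), Dlg2 (0.98), a postsynaptic scaffold, Rnf150 (0.98), Pcnx (0.98) and Dcc (0.98), the netrin receptor. Among those most like Ntrk3 were Gabrb1 (0.97), Tmem178b (0.96) and the NMDA receptor subunits Grin2b (0.96) and Grin2a (0.96). Ntrk2 was most like Sema6d (0.91), Sesn3 (0.90), Bend4 (0.89), Ano6 (0.89) and Bach1 (0.87). The scarce Ngfr and Ntf3 had lower values, led by Megf6 (0.77) and Hlx (0.73) for Ngfr and by Rfesd (0.62) and Cers4 (0.61) for Ntf3. Among the members themselves, Ntrk3 and Sort1 were the closest pair (0.89), followed by Bdnf and Ntrk2 (0.67), whereas Bdnf and Sort1 had an r of 0.47 and Ntrk2 and Sort1 of 0.10.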

How the data were processed

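Per the labels and the study's methods, RNA from P0 C57BL/6N hippocampal cultures was enriched for poly-A RNA, made into strand-specific libraries and sequenced single-end with 75 cycles. The authors aligned reads with STAR (version 2.5.4b) to GRCm38 and counted them per gene on the sense strand with featureCounts (version 1.6.5), without multi-mapping reads and without reads over more than 1 gene, so reads where genes overlap on the same strand are missing. The deposited values are raw counts per gene for 45 libraries, with no normalization. As the counting used strand, a model on the other strand adds no reads to a member as far as the libraries kept strand, which was not tested.

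The 6 members, the gene lists and the tests were chosen with earlier results of these data known. Each pair of conditions was tested on its own 10 libraries with edgeR 4.0.16 (R 4.3.3, TMM scaling, quasi-likelihood test) over all genes with at least 1 read, and calls have a Benjamini-Hochberg adjusted p-value under 0.05 over all genes tested. The study's own test was DESeq2, which served as an alternative (version 1.42.0) beside RLE scaling, edgeR's filterByExpr, the replicate block over the genes kept by filterByExpr (the paired fit), 1 fit over all 45 libraries, and leaving out each preparation. SE values are the log2 fold change divided by the square root of the F statistic. The 95% intervals follow from them with the normal distribution, which makes them somewhat narrower than the test implies. Most of the genes tested are scarce, which lowers the shares of all genes called that are given beside each count of members.

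The labels give each library a replicate number, and the study's methods define each culture preparation as a replicate. Same-numbered libraries were therefore taken to share a preparation and treated as paired, which the labels do not state. Deviations of same-numbered libraries from the condition means had a mean correlation of 0.45 over 13592 genes (lowest pair -0.37), against -0.11 between libraries of different numbers. No 2 libraries were identical. Depth ranged 7.17-fold between libraries, and p-values measure the spread between the 5 preparations. Named genes are all 6 members, and from each list up to 3 called genes per direction with the largest change after 2 h Bic and in the LP active effect. Some genes that these rules name are not reported here. Gene positions come from GENCODE M21 and promoter windows from RefSeq.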

Additional observations from a re-analysis of the deposited data

Results flagged for a closer look

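Within the groups of 5 libraries, 4 of 54 sets of values had a library far from the other 4 by Dixon's criterion, and chance gives about 1 in 20. Bdnf in SP TTX was 197 CPM in preparation 7, against 145 to 159 CPM in the others. Ngfr after 0.5 h Bic was 2.21 CPM in preparation 6, against 4.14 to 4.91, and with TBOA it was 6.70 CPM in preparation 7, against 4.42 to 4.90. Sort1 after 0.5 h Bic was 361 CPM in preparation 3, against 387 to 396.

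The active effect on Sort1 differed between the protocols by -0.38 on the log2 scale (LP minus SP, adjusted p = 0.0185, 5 of 5 preparations), with changes of -0.79 in the LP and -0.40 in the SP.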

How the results depend on the processing

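No call reversed under any alternative. Of 220 values per gene, the side of the threshold was kept in 212 for Bdnf, 216 for Ntf3, 211 for Ntrk2, 207 for Ntrk3, 211 for Ngfr and 218 for Sort1. RLE scaling changed no call of a member, and the paired fit changed no call beyond those given with the results.

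Bdnf lost its call in the spillover comparison under filterByExpr (-0.29) and in the fit over all 45 libraries (-0.30), with -0.31 to -0.26 when 1 preparation was left out. It was also lost against LP TTX in the fit over all 45 libraries (-0.37), and for SP TTX and SP TTX/NMDA against 0.5 h Bic under filterByExpr (0.55 and -0.48). For LP TTX/NMDA against the control, Bdnf passed in the paired fit with the replicate block (0.30) and ranged from 0.17 to 0.41 when 1 preparation was left out.

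The number of members called rose with the replicate block from 1 to 3 for 2 h against 1 h Bic, from 0 to 2 for the LP passive effect, from 1 to 2 for TBOA against LP TTX and against 1 h Bic, from 1 to 3 for LP TTX against 1 h Bic and for the LP minus SP active effect, and from 2 to 5 for LP TTX/NMDA against the control. With DESeq2 it was 2, 1 and 2 for 2 h against 1 h Bic, the LP passive effect and LP TTX against 1 h Bic. It was 0 for spillover and for SP TTX against 0.5 h Bic under filterByExpr, and 0 for spillover and TBOA against LP TTX over all 45 libraries. Leaving out 1 preparation gave 1 to 2 members for 2 h Bic against the control, 1 to 3 for 2 h against 1 h Bic, 0 to 1 for the LP passive effect, for spillover and for the LP minus SP active effect, and 1 to 2 for TBOA against LP TTX.

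Over all genes, the paired fit raised the number called from 357 to 618 after 1 h Bic, from 2789 to 4479 after 2 h Bic, from 1652 to 3607 for 2 h against 1 h Bic, from 1379 to 2548 and 1351 to 4217 in the SP active and total effects, from 1485 to 4978 in the LP passive effect, from 191 to 417 for spillover, from 2292 to 4527 and 1095 to 2141 for LP TTX and TBOA against 1 h Bic, from 992 to 4959 for SP TTX/NMDA against 0.5 h Bic, and from 88 to 323 and 900 to 4165 for the LP minus SP passive and active effects. DESeq2 called 2320 in the LP passive effect, 315 for spillover, 1659 for SP TTX/NMDA against 0.5 h Bic and 183 and 1660 for the LP minus SP effects. Under filterByExpr 35, 104 and 52 were called in the SP passive effect (85 without it), for spillover and for SP TTX against 0.5 h Bic (99), and over all 45 libraries 54 and 106 in the SP passive effect and for spillover. Ntf3 and Ngfr had 25 to 378 reads per library, and the part of depth in their missed calls was not tested.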

Other observations

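The annotation places other gene models over the members. Values are given here for those with calls and for Gm9885, which had no call, chosen after they were seen. C630044B11Rik, a model of unconfirmed coding status on the same strand as Ntrk2 at chr13:58812153-58814363 (GRCm38), lies inside Ntrk2 and meets none of its exons. It had 0 reads in 5 of 5 control libraries, which allows up to 0.0594 to 0.265 CPM per library (3 counts each), and reads in 40 of 40 treated libraries. After 0.5 h Bic it had 2 to 9 reads per library, after 1 h 11 to 46 and after 2 h 16 to 40, with adjusted p in edgeR of 1.56e-05, 1.14e-10 and 6.39e-10 against the control. Its mean was 0.80 CPM with LP TTX and 1.86 CPM with LP TTX/NMDA (log2 fold change 1.27 ± 0.24, adjusted p = 1.38e-04), a comparison in which Ntrk2 itself changed by -0.09 (adjusted p = 0.401). Reads of unspliced Ntrk2 RNA and of a separate transcript cannot be told apart at this position.

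Gm45346, antisense to the upstream end of Bdnf at chr2:109670908-109676591 (GRCm38), was scarce, at 1.04 CPM with LP TTX and 0.473 CPM with LP TTX/NMDA, and fell with NMDA (-1.10 ± 0.24, adjusted p = 7.01e-04) as Bdnf did on the other strand. Whether some of its reads were Bdnf reads counted on the wrong strand was not tested. Gm43099, inside Sort1 on the same strand at chr3:108287881-108293121 and apart from its exons, was higher with LP TTX/NMDA than with LP TTX (1.42 ± 0.45, adjusted p = 0.0187), with 5 to 14 and 1 to 5 reads per library, while Sort1 fell. Gm9885, antisense to Ntrk3, was at 5.22 to 6.06 CPM on average in all conditions.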
